A study of Mus musculus with 20 samples.

Results

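Hsd3b1, Hsd3b6, Cyp21a1, Cyp11b1 and Cyp11b2 encode enzymes of the late part of corticosteroid synthesis in the mouse adrenal. Por encodes the reductase that passes electrons to CYP21A1, and Akr1b7 the reductase that clears the aldehyde released by side-chain cleavage. These genes are 7 of the 47729 in the deposited table. They were chosen by name for their place in the pathway, and no value entered that rule. Earlier results of these data were known when the choice was made. All 7 genes passed the filter on low values. RNA was sequenced from whole adrenal glands in 20 libraries, to examine what inactivating BMAL1, a transcription factor of the circadian clock, does in female and male glands. There were 5 control females (age labels of 1.5 to 3.4 months), 5 Bmal1 KO females (2.4 to 3.4 months), 6 control males (2.9 to 4.7 months) and 4 Bmal1 KO males (2.9 to 3.7 months). Controls and knockouts alike carry the SCC::Cre label. The name SCC is that of the side-chain cleavage enzyme encoded by Cyp11a1, a gene of steroid-making cortical cells, so the medulla and other cells of the gland are outside the reach that such a driver is known for. The sources used here do not give the deleted exons, the strain, the hour of collection or any pooling of glands. Separate animals are shown by differing age labels only, and where labels are equal the p-values may measure technical spread between samples.

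In the adrenal cortex, cholesterol enters the mitochondrion and is cut to pregnenolone, which 3-beta-hydroxysteroid dehydrogenases convert to progesterone. The microsomal 21-hydroxylase CYP21A1 turns progesterone into deoxycorticosterone, and the mitochondrial enzymes CYP11B1 and CYP11B2 complete corticosterone in the zona fasciculata and aldosterone in the zona glomerulosa. POR passes electrons from NADPH to microsomal P450 enzymes such as CYP21A1, whereas the mitochondrial P450 enzymes take theirs from ferredoxin.

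Sequence sets how well reads can be assigned to these genes. On GRCm38, Hsd3b1 lies at chr3:98852194-98859794 and Hsd3b6 at chr3:98805504-98814443, both on the minus strand, and their coding sequences are 90% identical (1010 of 1122 bases). Below, bases 201 to 380 of each coding sequence are shown with the 10 differing bases in capitals, because a read inside the unbroken run between them fits both genes.
Hsd3b1: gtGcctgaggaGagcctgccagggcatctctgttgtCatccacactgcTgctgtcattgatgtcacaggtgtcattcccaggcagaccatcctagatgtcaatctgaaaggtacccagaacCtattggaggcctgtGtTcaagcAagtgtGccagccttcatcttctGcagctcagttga
Hsd3b6: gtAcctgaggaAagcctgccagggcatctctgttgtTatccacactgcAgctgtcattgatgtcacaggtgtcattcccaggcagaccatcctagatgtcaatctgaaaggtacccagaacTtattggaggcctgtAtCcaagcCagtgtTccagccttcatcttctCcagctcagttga
Cyp11b1 (chr15:74834125-74841643) and Cyp11b2 (chr15:74851010-74856318) are neighbours on the minus strand and are identical over 244 bases near the start of the coding sequence. Bases 11 to 290 are shown for the same reason, with 5 differing bases in capitals.
Cyp11b1: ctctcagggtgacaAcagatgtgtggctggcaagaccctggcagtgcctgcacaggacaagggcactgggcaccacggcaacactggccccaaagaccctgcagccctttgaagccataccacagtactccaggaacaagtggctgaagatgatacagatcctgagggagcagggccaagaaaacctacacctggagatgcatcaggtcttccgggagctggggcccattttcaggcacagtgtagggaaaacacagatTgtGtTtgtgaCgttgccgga
Cyp11b2: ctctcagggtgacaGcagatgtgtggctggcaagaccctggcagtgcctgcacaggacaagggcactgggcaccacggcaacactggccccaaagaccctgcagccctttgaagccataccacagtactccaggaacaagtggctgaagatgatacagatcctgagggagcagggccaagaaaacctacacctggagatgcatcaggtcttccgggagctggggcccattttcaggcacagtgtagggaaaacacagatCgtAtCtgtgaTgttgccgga
Of all stretches of 50 bases in its annotated transcripts, 10.5% in Cyp11b1 and 19.1% in Cyp11b2 also occur in another gene's transcripts. The share was 15.6% for Hsd3b6, mainly with Hsd3b2 and Hsd3b3, and 4.86% for Hsd3b1. Cyp21a1 (chr17:34801348-34804561, minus strand) shared 21.3% with the pseudogene Cyp21a2-ps. Akr1b7 (chr6:34412334-34423142, plus strand) shared 2.52%, and Por (chr5:135670033-135735326, plus strand) shared 0%. How the authors counted reads that fit more than 1 gene is not given in the sources used here, so levels of the paralogs carry that uncertainty. Cyp21a1, Cyp11b1, Por and Akr1b7 each overlap a gene on the opposite strand in GENCODE M21, and whether counting used strand is likewise not given.

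RefSeq (GRCm38.p6) gave a promoter for 4 of the 7 genes. The 250 bases before the start were searched on either strand for CACGTG, the E-box that BMAL1 binds with its partner CLOCK, and for 4 other motifs: GGGCGG (a GC box), AGGTCA (the half-site of SF-1 and other nuclear receptors), TGACGTCA (the full cyclic AMP response element) and TATAAA (the TATA box). These motifs do not overlap one another in the windows. Each window is printed from 5′ to 3′ of the gene up to the first annotated exon base within it, with matches in capitals. Hsd3b1 is at chr3:98859795-98860044 (minus strand) and Hsd3b6 at chr3:98814444-98814693 (minus strand). Por is at chr5:135688895-135689035 and Akr1b7 at chr6:34412112-34412333 (plus strand). The Por window lies within the annotated gene, which begins at chr5:135670033, so it is not upstream of all annotated exons of Por.
Hsd3b1: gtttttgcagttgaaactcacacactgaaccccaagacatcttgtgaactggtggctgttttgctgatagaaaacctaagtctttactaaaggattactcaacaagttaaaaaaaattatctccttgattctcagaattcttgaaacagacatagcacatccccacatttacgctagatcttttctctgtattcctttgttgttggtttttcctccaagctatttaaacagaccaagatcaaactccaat
Hsd3b6: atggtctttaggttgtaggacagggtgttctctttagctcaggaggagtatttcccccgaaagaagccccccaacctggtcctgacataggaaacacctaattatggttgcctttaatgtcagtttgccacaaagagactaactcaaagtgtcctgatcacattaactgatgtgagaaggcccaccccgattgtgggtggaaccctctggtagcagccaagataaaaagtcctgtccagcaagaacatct
Por: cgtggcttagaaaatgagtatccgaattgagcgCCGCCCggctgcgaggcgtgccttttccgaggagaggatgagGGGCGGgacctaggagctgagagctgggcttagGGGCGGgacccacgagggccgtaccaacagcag
Akr1b7: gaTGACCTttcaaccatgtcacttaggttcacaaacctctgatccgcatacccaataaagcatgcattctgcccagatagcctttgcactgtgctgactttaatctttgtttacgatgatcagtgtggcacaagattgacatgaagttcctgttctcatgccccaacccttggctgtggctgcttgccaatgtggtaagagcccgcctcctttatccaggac
Por had 4 matches to GGGCGG or its reverse complement in the 250 bases, of which 3 are in the printed stretch, and a G and C content of 65.6%, against a median of 52.4% over all promoter windows. Akr1b7 had 1 match to AGGTCA, read on the opposite strand. The letters of the E-box, the cyclic AMP response element and the TATA box were not in these 4 windows. Among 32851 windows of that length, the GC box was in 32.7%, the nuclear receptor half-site in 14%, the E-box in 6.02%, the cyclic AMP response element in 1.55% and the TATA box in 12.4%.

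The libraries held 13421985 to 26742820 reads, and the 7 genes took 2.78% to 5.31% of them. Values are normalised reads, meaning reads divided by 1 size factor per library. Arntl, the gene of BMAL1, summed to 494 to 860 normalised reads in control females, 833 to 1010 in Bmal1 KO females, 365 to 1092 in control males and 841 to 995 in Bmal1 KO males. It was thus not lower in libraries labelled Bmal1 KO, and limma called it higher in the mean of both sexes (log2 difference 0.56 ± 0.14, adjusted p = 0.0212). With the deleted exons unknown, a sum over the gene does not check the labels, and every direction below rests on them. Dbp, a clock output gene, did separate them, at 2634 ± 271 (SD, n = 5) in control against 413 ± 88.7 (n = 5) in Bmal1 KO females, and 2044 ± 435 (n = 6) against 403 ± 45.0 (n = 4) in males. All 6 defining cortex markers and 12 chromaffin cell markers were present, while kidney markers summed to at most 3.82 normalised reads. Control male 6 stood apart from the other control males in 3 of the 7 genes and had the highest defining cortex sum of all libraries, at 588498 normalised reads. Values without it are given beside the male values that it moved by more than 1.5 times.

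Compared per kilobase of annotated exon, the level in control females ran from Hsd3b1 at 270409 ± 29163 normalised reads through Cyp21a1 (127046 ± 14785), Cyp11b1 (74253 ± 11639), Akr1b7 (45095 ± 16476), Cyp11b2 (4751 ± 1649) and Hsd3b6 (1391 ± 431) to Por (863 ± 82.5, all SD, n = 5). In control males (n = 6) Akr1b7 (59148 ± 26220) and Cyp11b1 (40400 ± 13530) were closer than the SD of Akr1b7, and Hsd3b6 (4590 ± 2262) and Cyp11b2 (4204 ± 587) were closer than either SD. Por, which serves all microsomal P450 enzymes, was thus the lowest of the 7 per kilobase in controls of either sex. Without division by length, Hsd3b6 lay below Por in control females (2507 ± 776 against 3469 ± 332 normalised reads).

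**Figure D1:**
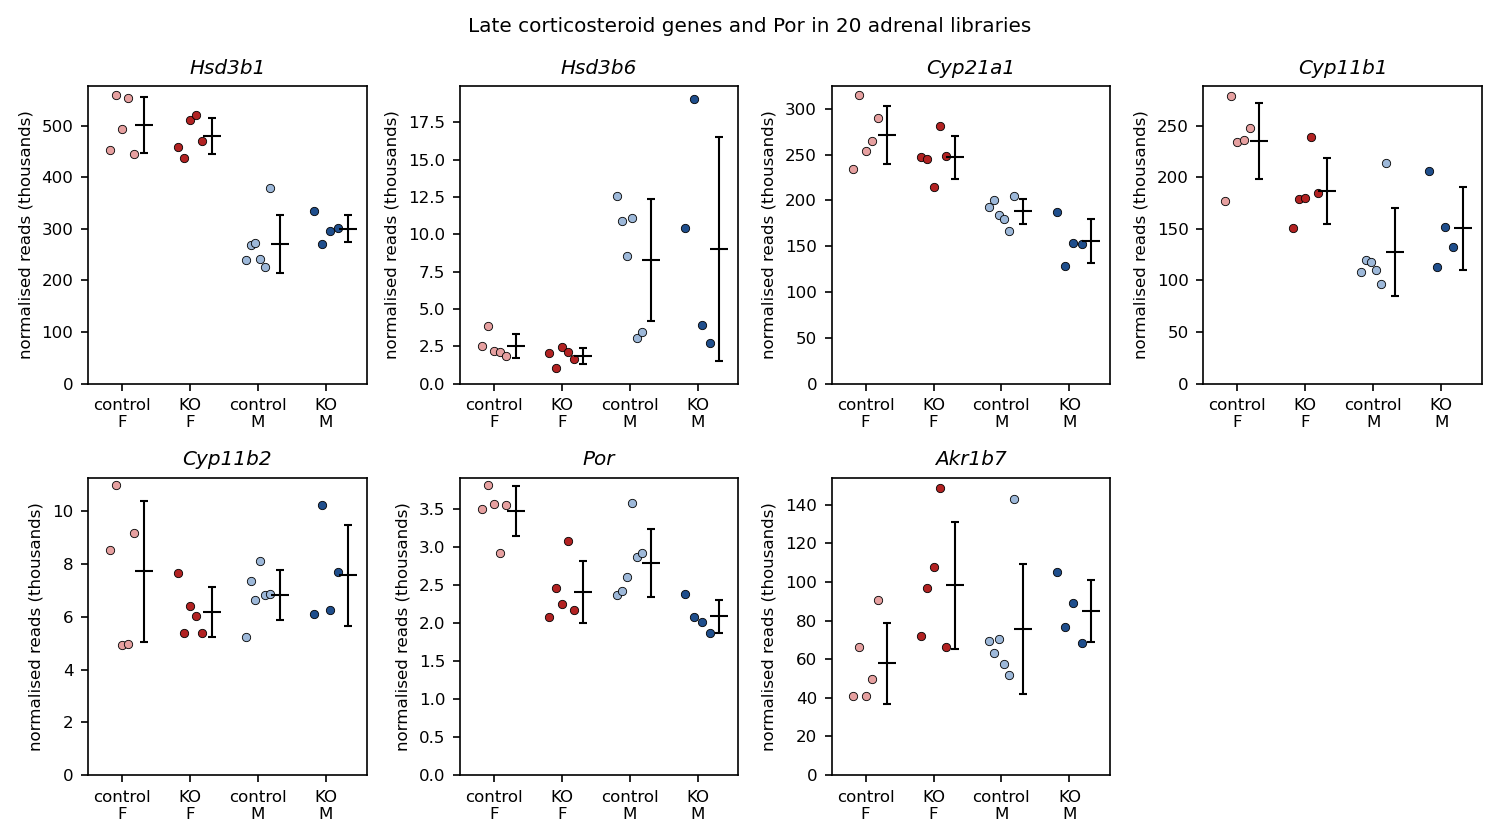
Normalised reads (vertical axis, from 0) of each gene in every library, by group. Points are libraries, and the bar beside them is the mean with 1 SD. Por is lower in most Bmal1 KO libraries, Hsd3b1 and Cyp21a1 are higher in females, and Hsd3b6 falls into separate levels within males.

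Differences were tested with limma on log2(value + 1) across 26612 genes, and a gene is called where the Benjamini-Hochberg adjusted p is under 0.05. Values after ± are standard errors for log2 differences and SDs for levels. In Bmal1 KO females 1 of the 7 genes was called, lower, against 1.75% of all genes. In Bmal1 KO males 0 of 7 were called by limma (1.33% of all genes), with 2 at an unadjusted p under 0.05, and edgeR called 0 and DESeq2 1. In the mean of both sexes 1 was called, lower (3.81%). For the difference of the genotype effect between the sexes 0 were called (0.0301%), with 1 at an unadjusted p under 0.05 and 0 by edgeR or DESeq2. All 7 genes overlapped between genotypes in each sex, where 3.25% of genes in females and 3.07% in males had groups that did not overlap. The median log2 difference of the 7 was -0.26 in females and 0.13 in males, against 0.00 over all genes in either sex.

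Por, the electron donor, was the gene that fell in Bmal1 KO adrenals. It stood at 3502, 3814, 3568, 2917 and 3543 normalised reads in the control females. In Bmal1 KO females it stood at 2076, 2453, 2246, 3080 and 2168. Bmal1 KO female 4 lay above the lowest control, and the other 4 knockouts lay below all controls. The mean went from 3469 ± 332 to 2405 ± 402 (n = 5 each), a log2 difference of -0.54 ± 0.11 (adjusted p = 0.0132). Leaving out any 1 of the 20 libraries kept the adjusted p between 0.00244 and 0.0448. In males Por ranged from 2362 to 3570 in controls (median 2733, n = 6) and stood at 2374, 2080, 2009 and 1873 in the knockouts. Bmal1 KO male 1 lay just above the lowest control, and the other 3 knockouts lay below all controls. The log2 difference was -0.41 ± 0.12, with a 95% interval of -0.65 to -0.17 and an adjusted p of 0.0991, so it was not called. DESeq2 (adjusted p = 0.0236) and quantile normalisation (0.034) did call it. The mean of both sexes was -0.47 ± 0.08 (adjusted p = 0.00115), or 0.72-fold, and the sexes differed in this effect by -0.13 ± 0.16 (adjusted p = 0.975, 95% interval -0.47 to 0.21).

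Summed marker lists differed between genotypes in both directions. The sum of the 6 defining cortex markers, all in the table, was 315810 to 440548 normalised reads in control and 253028 to 354588 in Bmal1 KO females, and 401374 to 588498 against 239706 to 379472 in males. The lower sum is mostly that of Star and Cyp11a1, which are pathway genes described further on. Star went from 219723 ± 29477 to 152307 ± 21049 in females and from 262771 ± 62108 to 162188 ± 30810 in males, and Cyp11a1 from 82328 ± 24890 to 70435 ± 10655 and from 129875 ± 19544 to 79535 ± 13336. Of the same list, Fdx1 had higher means in the knockouts of both sexes, Scarb1 in females and Mc2r in males, none of them called. The 6 zona glomerulosa markers summed to 48713 to 57420 in control and 32838 to 36623 in Bmal1 KO females, and to 35014 to 51693 against 25766 to 33963 in males. More than any other of these 6, Kcnk3 made up that sum (29704 ± 3406 to 16281 ± 1558 in females, 23917 ± 3631 to 14623 ± 4669 in males). Shh also had lower means in the knockouts (552 ± 102 to 161 ± 44.2 in females, 1838 ± 630 to 614 ± 195 in males). Dab2 had a lower mean in female knockouts (14850 ± 1321 to 13003 ± 1146). Agtr1b, by contrast, had higher means in the knockouts of both sexes and Dab2 in males, neither called. Medians of the zona fasciculata sum were 62322 in control and 76113 in Bmal1 KO females, and 100025 and 80722 in males. Those of the endothelium were 13481 and 14513, and 14102 and 16262, in the same order. Those of red blood cells were 8386 and 15724, and 10702 and 14055. For chromaffin cells they were 143487 and 115356, and 157651 and 142368. The part of any of these sums in the lower Por was not tested, and in whole glands fewer cells of a type and less RNA per cell cannot be told apart. Per 100 reads of Cyp21a1, the enzyme it serves, Por came to 1.29 ± 0.16 in control and 0.971 ± 0.112 in Bmal1 KO females, and to 1.50 ± 0.30 and 1.36 ± 0.18 in males. In females the highest knockout, at 1.0966, lay just under the lowest control, at 1.0992, while in males the ranges overlapped. The ratio was not tested.

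Hsd3b1, the most abundant 3-beta-hydroxysteroid dehydrogenase gene of these glands, was not called between genotypes. It stood at 453270, 559963, 494114, 554685 and 446012 normalised reads in control females and at 459705, 437456, 511406, 520866 and 471390 in Bmal1 KO females. Control males ranged from 225997 to 380096 (median 255035, n = 6), and the Bmal1 KO males stood at 333892, 270952, 295272 and 302556. The genotypes overlapped in each sex, whereas every female library exceeded every male library of the same genotype. The genotype difference was -0.06 ± 0.12 in females (adjusted p = 0.922, 95% interval -0.32 to 0.20) and 0.17 ± 0.13 in males (adjusted p = 0.705, interval -0.10 to 0.43). Without control male 6 the male value was 0.27 (adjusted p = 0.224).

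Hsd3b6, a second 3-beta-hydroxysteroid dehydrogenase known from the zona glomerulosa, had the widest spread of the 7 in males. It stood at 2498, 3836, 2202, 2130 and 1868 normalised reads in control females, and at 2073, 1059, 2425, 2131 and 1621 in Bmal1 KO females. In males it ranged from 3081 to 12542 in controls (median 9714, n = 6), and stood at 10386, 19028, 3902 and 2724 in the knockouts. Males therefore held both a low and a high level in each genotype, and the coefficient of variation was 49.3% in control and 83.0% in Bmal1 KO males. The low and high males had different age labels. The 4 males of 2.9 months, 2 of each genotype, lay at 2724 to 3902, and the 6 older males, of 3.1 to 4.7 months, lay at 8539 to 19028.

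The split was seen in Hsd3b6 and in none of the other 6 genes, whose ranges overlapped between the 4 younger and the 6 older males. The share of all genes that part at this age was not counted, so the split is not known to be particular to Hsd3b6. Hsd3b1 lay at 225997 to 380096 in the younger and 238703 to 333892 in the older males, and Cyp11b2, the other glomerulosa enzyme, at 6239 to 7706 and 5219 to 10233. Zona glomerulosa markers summed to 25766 to 40653 and 26541 to 51693, and reads per library were 18148102 to 21739938 and 13421985 to 26742820, so neither separated the ages. A slope on age, fitted in each sex after the values had been seen, was 0.999 ± 0.303 log2 units per month in males (unadjusted p = 0.00392, adjusted p = 0.631) and 0.22 ± 0.32 in females (adjusted p = 0.857). Limma called 0 genes for age in males or females (0% of 26612), with 1681 and 2806 at an unadjusted p under 0.05. No other tool was run on age. Genotype differences in Hsd3b6 were -0.44 ± 0.45 in females (adjusted p = 0.802, 95% interval -1.38 to 0.51) and -0.09 ± 0.46 in males (adjusted p = 0.979, interval -1.05 to 0.88). The male value changed sign with age as a covariate (0.20) and without Bmal1 KO male 4 (0.35), was -0.30 without control male 6, and leaving out each library in turn gave -0.58 to 0.35.

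**Figure D2:**
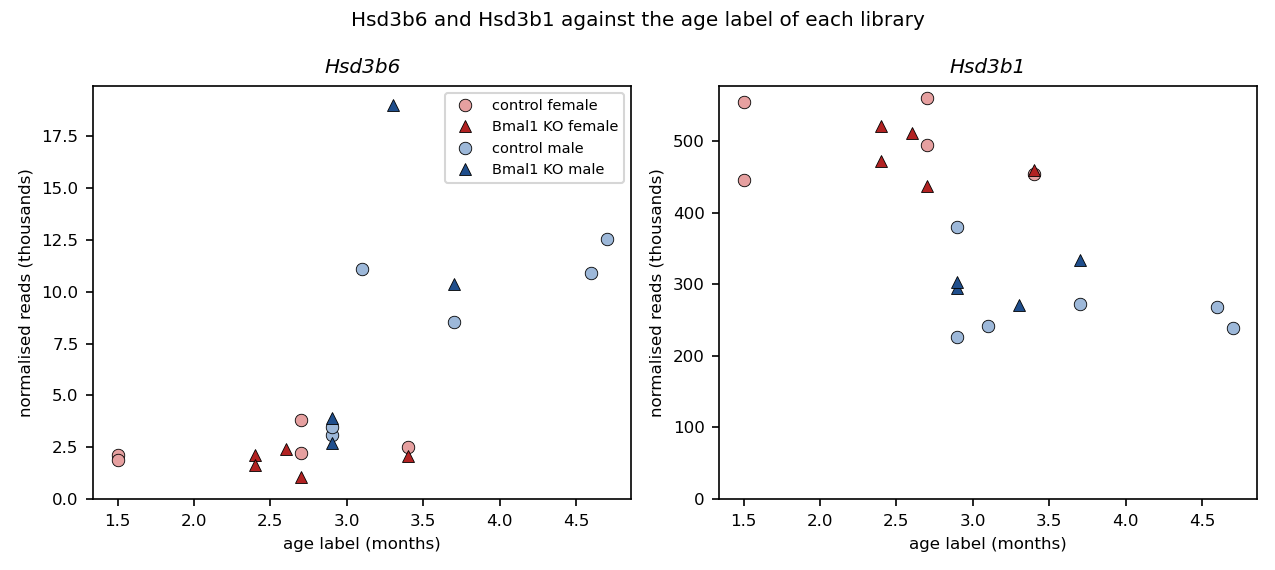
Normalised reads (vertical axis, from 0) of Hsd3b6 (left) and Hsd3b1 (right) against the age label in months, 1 point per library; circles are controls and triangles Bmal1 KO. Males of 2.9 months lie at 2724 to 3902 in Hsd3b6 and older males at 8539 or more, while Hsd3b1 has no such step.

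Cyp21a1, the 21-hydroxylase that takes electrons from POR, had log2 differences below 0 in either sex that did not pass the test. It stood at 234607, 315703, 253775, 265403 and 289908 normalised reads in control females and at 247829, 245208, 214567, 280844 and 248774 in Bmal1 KO females. Control males ranged from 166879 to 204434 (median 188299), and the Bmal1 KO males stood at 186874, 128535, 153523 and 152794. Of these, 3 lay below all control males, and the females overlapped. The log2 difference was -0.28 ± 0.11 in males (adjusted p = 0.295, 95% interval -0.51 to -0.06) and -0.13 ± 0.11 in females (adjusted p = 0.709, interval -0.36 to 0.09). The mean of both was -0.21 ± 0.08 (adjusted p = 0.159), which DESeq2 called (adjusted p = 0.0476). Cyp21a2-ps, the pseudogene with which Cyp21a1 shares sequence, went from 4624 ± 751 (n = 6) to 3076 ± 639 (n = 4) in males, a fall of -0.60 ± 0.14 (adjusted p = 0.0334), and its part in the Cyp21a1 count was not tested.

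Cyp11b1, the 11-beta-hydroxylase that makes corticosterone, had opposite signs in the sexes, neither of them called. It stood at 177271, 278954, 234499, 236672 and 247655 normalised reads in control females and at 151033, 178569, 180141, 238782 and 184613 in Bmal1 KO females. Control males ranged from 96984 to 213635 (median 114007), and the Bmal1 KO males stood at 206375, 112955, 151626 and 132092. Control male 6 is the 213635, and the other 5 control males lay at or below 120177. The log2 difference was -0.33 ± 0.19 in females (adjusted p = 0.539, 95% interval -0.73 to 0.06) and 0.25 ± 0.19 in males (adjusted p = 0.708, interval -0.15 to 0.66). The male value was 0.41 without control male 6 (adjusted p = 0.246) and 0.091 without Bmal1 KO male 1 (adjusted p = 0.92). The difference between the sexes in this effect was -0.59 ± 0.27 (unadjusted p = 0.0424, adjusted p = 0.759). The mean of both sexes was -0.04 ± 0.14 (adjusted p = 0.937), and turned to 0.040 without control male 6.

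Cyp11b2, the aldosterone synthase, was at 8519, 10979, 4927, 4984 and 9193 normalised reads in control females. In Bmal1 KO females it was at 7671, 5395, 6397, 6015 and 5389. Control females fell into 3 higher and 2 lower libraries, and the knockouts lay between and among them. Control males ranged from 5219 to 8118 (median 6841), and the Bmal1 KO males stood at 6122, 10233, 6239 and 7706. The log2 difference was -0.26 ± 0.20 in females (adjusted p = 0.683, 95% interval -0.67 to 0.15) and 0.13 ± 0.20 in males (adjusted p = 0.894, interval -0.29 to 0.54). The female value was -0.11 without control female 2 and -0.40 without control female 3 or 4. The male value rested on Bmal1 KO male 2, without which it was -0.026. Per 100 reads of Cyp11b1, Cyp11b2 came to 3.33 ± 1.19 in control and 3.42 ± 0.999 in Bmal1 KO females, and to 5.70 ± 1.54 and 5.49 ± 2.65 in males, a ratio within 1 SD between genotypes.

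Akr1b7, an aldo-keto reductase that detoxifies isocaproaldehyde released by side-chain cleavage, had the largest positive log2 difference of the 7 in females and in the mean of both sexes, neither called. It stood at 41146, 66303, 40957, 49720 and 90712 normalised reads in control females and at 72087, 96866, 107929, 148451 and 66239 in Bmal1 KO females. Of the knockouts 3 lay above all controls, while control females 2 and 5 lay above the lowest knockout. The log2 difference was 0.78 ± 0.26 in females (adjusted p = 0.175, 95% interval 0.23 to 1.32) and was not called. Control males ranged from 51605 to 142744 (median 66122), and the Bmal1 KO males stood at 104976, 76699, 89261 and 68327. Control male 6 again held the highest value, and the other 5 control males lay at or below 70649. The male difference was 0.23 ± 0.27 (adjusted p = 0.839, interval -0.32 to 0.79), or 0.43 without control male 6 (adjusted p = 0.477) and 0.12 without Bmal1 KO male 1 (adjusted p = 0.928), and the mean of both sexes was 0.50 ± 0.19 (adjusted p = 0.171). Without control male 6 the mean was 0.61 (adjusted p = 0.0314), and with quantile normalisation 0.65 (adjusted p = 0.0179), so the call depends on these choices.

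Akr1b7 and Cyp11b1 had log2 differences of opposite sign in Bmal1 KO females, neither called. Per 100 reads of Cyp11b1, Akr1b7 came to 23.2, 23.8, 17.5, 21.01 and 36.6 in control females and to 47.7, 54.2, 59.9, 62.2 and 35.9 in Bmal1 KO females. Bmal1 KO female 5 lay just under the highest control, and the other 4 knockouts lay above all controls. The mean was 24.4 ± 7.26 against 52.0 ± 10.6 in females, and 58.1 ± 6.38 (n = 6) against 57.3 ± 7.90 (n = 4) in males. Control females were thus the group that stood apart, and control male 6, at 66.8, lay within the male range on this ratio. The ratio was chosen with these values known and was not tested.

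**Figure D3:**
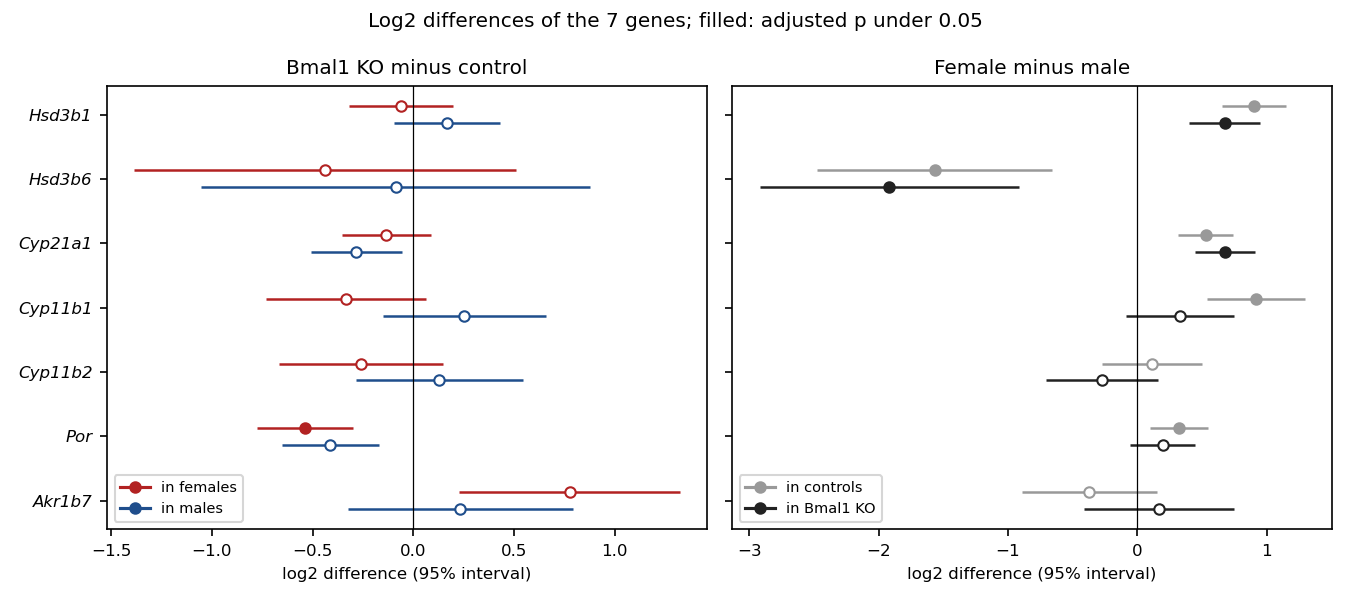
Log2 differences (horizontal axis) with 95% intervals for the 7 genes; left, Bmal1 KO minus control in females (red) and males (blue); right, female minus male in controls (grey) and Bmal1 KO (black). Filled points have an adjusted p under 0.05: Por in females on the left, and 5 genes in controls and 3 in Bmal1 KO on the right.

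Sex separated the 7 genes more often than genotype, as it did genes in general. Between control females and males, 4 of the 7 genes were called higher in females and 1 lower, where 26.4% of all genes were called. In Bmal1 KO adrenals 2 were higher and 1 lower (22.8%). In controls 2 genes had groups that did not overlap (13.9% of all genes), and in Bmal1 KO adrenals 3 (20.7%). The median log2 difference of the 7 was 0.32 in controls and 0.20 in Bmal1 KO, against -0.05 and -0.07 over all genes.

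Hsd3b1 was higher in females by 0.90 ± 0.12 in controls (adjusted p = 8.05e-06), or 1.87-fold, and by 0.68 ± 0.13 in Bmal1 KO (adjusted p = 0.000723). Cyp21a1 was higher by 0.53 ± 0.10 (adjusted p = 0.000558) and 0.68 ± 0.11 (adjusted p = 0.000154). These 2 genes did not overlap between the sexes in either genotype. Cyp11b1 was higher in control females by 0.92 ± 0.18 (adjusted p = 0.000728), with control male 6 inside the female range, and by 0.33 ± 0.20 in Bmal1 KO (adjusted p = 0.265), which was not called. Hsd3b6 went the other way from its paralog, at -1.57 ± 0.43 in controls (adjusted p = 0.0104) and -1.92 ± 0.48 in Bmal1 KO (adjusted p = 0.00607). Age labels ran from 2.9 to 4.7 months in control males and from 1.5 to 3.4 in control females. The value in controls was -0.75 (adjusted p = 0.346) with age as a covariate and -1.38 (adjusted p = 0.0778) without the 2 control females of 1.5 months. Per 100 reads of Hsd3b1, Hsd3b6 came to 0.497 ± 0.122 in control females and 3.22 ± 1.76 in control males, and to 0.384 ± 0.094 and 3.09 ± 2.79 in Bmal1 KO, each low against its paralog.

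Por was higher in control females than males by 0.32 ± 0.11 (adjusted p = 0.0329), a call lost without any 1 of control females 1, 2, 3 and 5 or control males 1, 2 and 3 (adjusted p up to 0.0847), with quantile normalisation (0.227) and with age as a covariate (0.302). In Bmal1 KO the value was 0.20 ± 0.12 (adjusted p = 0.265). Cyp11b2 differed by 0.11 ± 0.19 (adjusted p = 0.712) and -0.28 ± 0.21 (adjusted p = 0.374), and Akr1b7 by -0.37 ± 0.25 (adjusted p = 0.307) and 0.17 ± 0.28 (adjusted p = 0.715), and neither gene was called. Without control male 6 the Akr1b7 value in controls was -0.17 (adjusted p = 0.616).

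By mean level, Hsd3b1, Cyp21a1 and Cyp11b1 ran highest in control females, then Bmal1 KO females, then the male groups. Hsd3b1 means were 501609 ± 54097, 480164 ± 35186, 300668 ± 25946 (Bmal1 KO males) and 271184 ± 56253 (control males), and the groups of like sex were closer than the larger SD of the pair. Por ran from control females (3469 ± 332) through control males (2790 ± 445) and Bmal1 KO females (2405 ± 402) to Bmal1 KO males (2084 ± 212), and the last 3 were each closer to the next than the larger SD of the pair. Akr1b7 had the reverse lead, with Bmal1 KO females (98314 ± 32882) above Bmal1 KO males (84816 ± 15958), control males (75769 ± 33587) and control females (57767 ± 21106), and each was within 1 SD of the next.

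Upstream of these enzymes, 2 of 7 genes of cholesterol entry and side-chain cleavage were lower in Bmal1 KO males and in the mean of both sexes, and 0 in females by limma (2 at an unadjusted p under 0.05). Star, which carries cholesterol into the mitochondrion, differed by -0.69 ± 0.15 in males (adjusted p = 0.0238) and -0.53 ± 0.15 in females (adjusted p = 0.0815). Cyp11a1, the side-chain cleavage enzyme, differed by -0.71 ± 0.16 in males (adjusted p = 0.0321) and -0.19 ± 0.16 in females (adjusted p = 0.727). The difference between the sexes was not called for Star (adjusted p = 0.98) or Cyp11a1 (adjusted p = 0.747). The list's median was -0.05 in females and -0.01 in males. Of the 6 other 3-beta-hydroxysteroid dehydrogenase genes limma called 0 between genotypes, with 0 at an unadjusted p under 0.05. Hsd3b2, which shares sequence with Hsd3b6, stood at 142 ± 22.6 in control females and 397 ± 98.0 in control males.

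Of 13 other electron partners of P450 enzymes, 1 was called in Bmal1 KO adrenals, Cyb5r4, a fusion of cytochrome b5 and its reductase. It was higher by 0.31 ± 0.06 in females (adjusted p = 0.0129) and 0.27 ± 0.07 in males (adjusted p = 0.04), the direction opposite to Por. Fdx1 and Fdxr, which serve the mitochondrial enzymes, were not called. The list's median was -0.05 and -0.02. Of 14 microsomal enzymes that POR serves, 1 was lower in females and 1 in males. Cyp2f2, a P450 gene active in the X-zone, the transient inner cortex of the mouse, went from 7517 ± 3336 to 1123 ± 756 in females (log2 -2.82 ± 0.37, adjusted p = 0.000117) and stood at 34.6 ± 18.2 in control and 32.1 ± 3.65 in Bmal1 KO males. Hmox1, heme oxygenase, was lower by -0.70 ± 0.17 in males (adjusted p = 0.0469). X-zone markers summed to 37664 to 137555 in control and 32182 to 101825 in Bmal1 KO females, against 503 to 1247 in all males, and Cyp2f2 is on that list. Other members of the list differed in direction: Thrb was higher in Bmal1 KO females (1846 ± 179 to 2815 ± 274, log2 0.61 ± 0.11, adjusted p = 0.00513), Pik3c2g stood at 3740 ± 2159 and 6549 ± 5905, and Akr1c18 at 62364 ± 36852 and 51548 ± 25643, neither called.

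Among the 3 relatives of Akr1b7, Akr1b10 was higher (0.27 ± 0.06, adjusted p = 0.0199) and Akr1b3 lower (-0.27 ± 0.06, adjusted p = 0.00706) in the mean of both sexes. Of 14 genes of further corticosteroid metabolism limma called 0 between genotypes, with 1 in females and 3 in males at an unadjusted p under 0.05. Of 18 regulators, Mrap, the accessory protein of the ACTH receptor, was higher in the mean (0.51 ± 0.13, adjusted p = 0.0327), and Cyp11a1, which is on that list too, was lower. Nr5a1, the transcription factor SF-1 that drives steroidogenic genes, differed by -0.31 ± 0.11 in the mean (adjusted p = 0.143) and was not called.

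Between the sexes the counts on these lists are to be read beside the 26.4% of all genes called in controls and 22.8% in Bmal1 KO, and no list was tested. In controls, 8 of 14 genes of further metabolism were higher in females and 2 lower, led by Akr1d1 (9.03 ± 0.52, adjusted p = 7.04e-11), Akr1c18 (8.56 ± 0.73, adjusted p = 2.47e-08) and Srd5a2 (-3.06 ± 0.28, adjusted p = 8.05e-08). Akr1c18 is a marker of the X-zone. Of the 18 regulators 6 were higher and 4 lower in control females, led by Nr0b1 (3.33 ± 0.15), Agt (2.59 ± 0.32) and Nr4a2 (-1.80 ± 0.25). Of the 13 electron partners 4 were higher and 1 lower, led by Cyb5b (1.15 ± 0.07), Cyb5r3 (0.69 ± 0.12) and Cyb5r4 (0.50 ± 0.06). Of the 14 microsomal enzymes 6 were higher and 4 lower, led by Cyp2f2 (7.76 ± 0.36), Cyp17a1 (-2.60 ± 0.44) and Hmox1 (-2.15 ± 0.16). In Bmal1 KO adrenals the counts were 6 and 1, 5 and 3, 7 and 2, and 5 and 2 for these 4 lists in turn. Of the 6 other 3-beta-hydroxysteroid dehydrogenase genes, Hsd3b2 (-1.46 ± 0.19) was lower and Nsdhl (0.85 ± 0.18) and Hsd3b7 (0.56 ± 0.18) were higher in control females. Of the 7 genes of cholesterol entry, Stard4 (0.81 ± 0.22) was higher, and Cyp11a1 (-0.69 ± 0.15) and Stard3 (-0.29 ± 0.09) were lower. The 3 Akr1b relatives included 1 lower, Akr1b10 (-0.61 ± 0.09).

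Within groups, some pairs of the 7 genes deviated together from library to library. As a description, the correlation of log2 values after subtraction of each group's mean, over 20 libraries, was 0.851 for Hsd3b1 and Cyp11b1, 0.800 for Cyp11b1 and Akr1b7, and 0.759 for Cyp21a1 and Cyp11b1. Without control male 6 these were 0.708, 0.672 and 0.846. The pairs among these 4 genes not yet named were lower, at 0.510 for Hsd3b1 and Cyp21a1, 0.606 for Hsd3b1 and Akr1b7, and 0.576 for Cyp21a1 and Akr1b7, and at 0.539, 0.300 and 0.569 without that library. Cyp11b2 and Hsd3b6 had values of -0.180 and -0.149 with Cyp11b1 and 0.280 with each other, and Por had 0.376 with Cyp11b1 and 0.261 with Cyp21a1. Without control male 6 the value for Hsd3b6 and Cyp11b1 changed sign, to 0.127. For Cyp11b2 it was -0.253 with Cyp11b1 and 0.304 with Hsd3b6. All values of a library share its size factor and tissue makeup. Among 12000 genes with a mean of at least 100, the most like in this measure were Creb3 (0.958) and Prdx3 (0.941) for Cyp11b1, Hspe1 (0.931) and Nars (0.928) for Akr1b7, and Napepld (0.887) and Akr1b8 (0.879) for Hsd3b1. For Cyp21a1 they were Atp1a4 (0.879) and Aifm1 (0.845), for Por Ftsj1 (0.874) and St3gal1 (0.865), for Hsd3b6 Ly6d (0.790) and Arhgdig (0.790), and for Cyp11b2 Dguok (0.780) and Cenpq (0.770). The third in each case was Ghitm (0.938), Txn2 (0.914), Iscu (0.878), Wipi2 (0.844), Tiam1 (0.815), Rab11fip4 (0.776) and Me3 (0.770). Without control male 6 the values for Napepld and Akr1b8 with Hsd3b1 were 0.750 and 0.712.

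**Figure D4:**
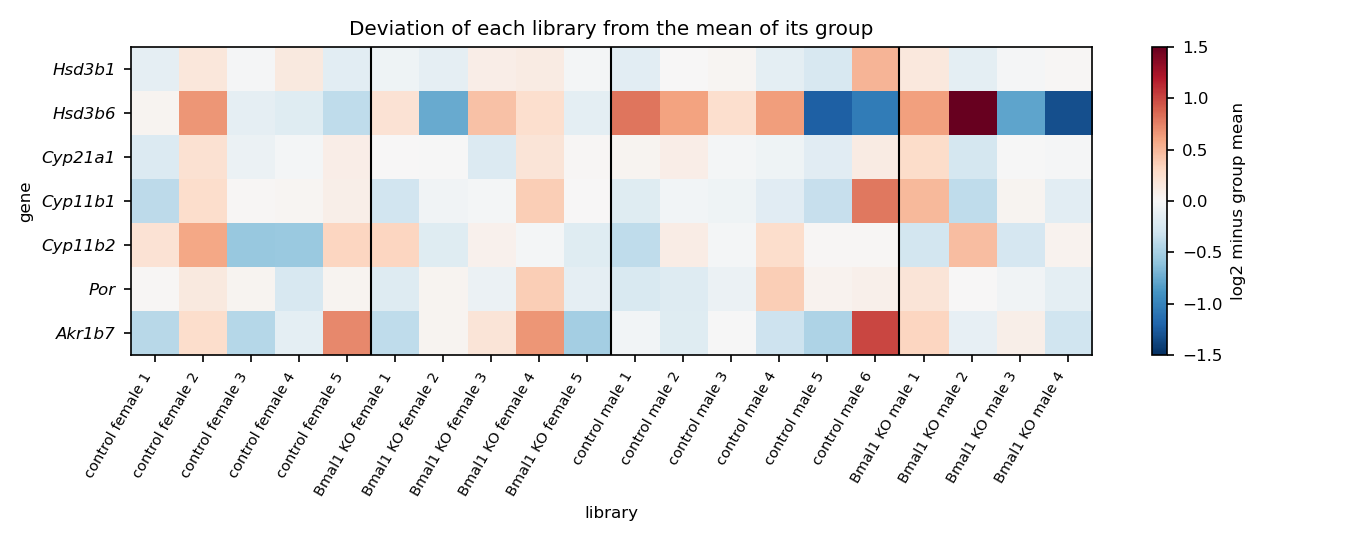
Log2 deviation of each library (columns) from the mean of its group, for the 7 genes (rows); red is above and blue below, and lines part the groups. Control male 6 is high in Hsd3b1, Cyp11b1 and Akr1b7 together, and Hsd3b6 varies among males apart from the other genes.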

How the data were processed

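For each gene in each of 20 libraries the authors deposited a normalised signal. Every positive value was a whole multiple of 1 step per library (100% within 0.001 of a read), so whole reads were recovered and the deposited signal is a read count divided by a size factor. FastQC, MultiQC, featureCounts, Salmon and DESeq2, with the builds mm10 and GRCm38, are listed in the submitters' processing notes, without versions, roles or counting options. Levels are the deposited values, and per-kilobase values use the union of GENCODE M21 exons.

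Tests used limma 3.58.1 with a trended prior on log2(value + 1), with 1 mean per group over all 20 libraries, for genes at 1 or more in at least 4 libraries (26612 genes). A fold change on this scale understates the change of low genes. P-values were adjusted over all genes tested. On recovered reads, edgeR 4.0.16 called 459 genes in females and 327 in males, against 467 and 354. DESeq2 1.42.0, limma-voom, other pseudocounts (0.1 and 10), filters, quantile normalisation, age as a covariate, a replicate block and leaving out each library were alternatives. Age slopes were added after the values were seen. The fit was tested on simulated data. Samples were grouped by the genotype and sex labels. No 2 libraries of a group agreed within sampling noise (lowest chi-square per degree of freedom 13.25).

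All 7 genes, the 3 genes most like each, and the genes called in 7 pathway lists are named, in sex contrasts up to 3 per list. The genes and lists were chosen with earlier results of these data known. Sts and Fdx2, on the lists, were not analysed here. Shared sequence was counted in 50-base stretches of annotated transcripts. Figures were drawn with matplotlib 3.10.9.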

Additional observations from a re-analysis of the deposited data

Results flagged for a closer look

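Among the 28 gene and group combinations, 3 held a library far from the rest of its group by the gap between the extreme value and its neighbour, and all 3 were control male 6. It held 380096 normalised reads of Hsd3b1, where the other 5 control males reached at most 272236. It held 213635 of Cyp11b1 and 142744 of Akr1b7. Chance alone marks about 1 group in 20, and the 3 genes vary together, so these are not independent events. The library also had the highest Arntl (1092 normalised reads) and Cry1 (213) of the control males and the lowest Dbp (1317). In this library Cry1 lay well under the 1140 to 1423 of Bmal1 KO males. Its zona fasciculata markers, all 5 in the table, summed to 129738, the highest of all libraries, and its 20340227 reads were within the range of the others. The part of these values in its high enzyme levels was not tested.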

How the results depend on the processing

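Por remained lower and called in Bmal1 KO females (log2 difference -0.61 to -0.51, adjusted p 0.000966 to 0.0406 over 13 alternatives) and in the mean of both sexes (-0.51 to -0.46, adjusted p 4.45e-06 to 0.00782 over 12). In males 1 of the 7 genes, Por, was called with quantile normalisation and 1 with DESeq2. In the mean 2 were called with quantile normalisation (Akr1b7 added) and 2 with DESeq2 (Cyp21a1 added), and leaving out 1 library gave 1 to 2. With age as a covariate 3 genes were called between control females and males. All genes called moved from 467 in females to 262 without the 2 youngest controls and 900 with DESeq2, from 354 in males to 195 with only the male groups, 720 with DESeq2 and 217 to 477 with 1 library left out, and from 1013 in the mean to 1645 with DESeq2. The 8 genes whose genotype effect differed by sex became 0 with age as a covariate in either form, 3 with limma-voom, 75 with DESeq2 and 0 to 16 with 1 library left out. The 7023 genes between control sexes became 3746 with age. Signs turned only for values that were not called. With quantile normalisation these were Hsd3b1 in females (0.10), Cyp11b1 in the mean (0.055), Cyp11b2 between control sexes (-0.028) and Akr1b7 between Bmal1 KO sexes (-0.36). For Hsd3b6 in males they were 0.20 and 0.36 with age (1 slope, and 1 per sex), 0.13 with edgeR and 0.12 with DESeq2. Deviations of same-numbered libraries had correlations of -0.069 to 0.384 in females and -0.192 to -0.028 in males. Control females 1 to 4 each correlated best with the knockout of their own number, and control female 5 and control males 1 to 4 did not. The main fit did not take the numbers as pairs, and whether the females were paired is not known. With the replicate block, Cyp11b1 in the mean was 0.036 and the Hsd3b6 difference between the sexes 0.022. Por between control sexes was no longer called (0.34, adjusted p = 0.0576), and the block changed no other call among the 7 genes. The block gave each number 1 effect shared by females and males, and control male 6 alone held its number. It is therefore not a test of pairing within females. With 1 library left out, the ranges that crossed 0 were -0.58 to 0.35 (Hsd3b6 in males), -0.026 to 0.22 (Cyp11b2 in males), -0.12 to 0.040 (Cyp11b1 in the mean), -0.14 to 0.0077 (Cyp11b2 in the mean), -0.79 to 0.15 (Hsd3b6, difference of effects) and -0.032 to 0.26 (Cyp11b2 between control sexes). The cause of these changes was not tested. Groups held 4 to 6 libraries, and counting error was not estimated apart from the spread between them.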
